A study of Mus musculus with 8 samples.

Results

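The 9 genes described here encode the enzymes that write, copy and remove DNA methylation: Dnmt1, Dnmt3a, Dnmt3b, Tet1, Tet2, Tet3, Uhrf1, Uhrf2 and Tdg. They were taken by symbol from the 39179 Ensembl gene IDs in each library, and all 9 were found. The study compared common lymphoid progenitors (CLPs), bone marrow cells of C57BL/6 mice from which lymphocytes develop. The ex vivo CLP group (4 libraries) was sorted directly from marrow. The cCLP group (4 libraries) had grown for 2 months on OP9, a mouse stromal line, in KIDMEM medium with Flt3L and a low dose of IL-7, before sorting. Both were sorted as Lin-IL7R+Flk2+CD27+Ly6d- cells, and no genotype or treatment other than the culture was named. No label named an animal, a culture or a batch, so p-values measure only the spread between these libraries, which may be technical.

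In mammals most CpG methylation is copied after replication. UHRF1 binds hemimethylated DNA behind the fork and brings in DNMT1, which methylates the new strand, while UHRF2 is its close relative. DNMT3A and DNMT3B add methylation to unmethylated sites, TET1, TET2 and TET3 oxidise 5-methylcytosine, and TDG, a DNA glycosylase, excises the oxidised products 5-formylcytosine and 5-carboxylcytosine so that base excision repair can restore cytosine. DNMT3A and TET2 are known in blood for restraining stem cell self-renewal.

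Promoter windows of 2 pairs of members are shown first, Dnmt1 and Uhrf1, of maintenance methylation, and Dnmt3a and Dnmt3b, the de novo enzymes. RefSeq (GRCm38.p6) windows from 250 bases before to 50 bases after a start site held 14 entries for the 9 members. They were searched on both strands for the 4 words TTTCCCGC, TTTGGCGC, TTTCGCGC and TTTGCCGC, forms of the E2F site, which is bound by the E2F factors that drive S phase genes. Of all 32851 windows 744 (2.26%) held a match, and of the 14 member windows 2 did, 1 at Dnmt1 and 1 at Uhrf1. All 4 words contain a CpG, and the 2 matching windows held 33 CpGs each, against a median of 7 over all windows. The share among windows of similar CpG content was not computed, so the 2.26% is not a matched background. The windows of the first pair below were picked because they held a match, and capitals mark the words. The Dnmt1 match at position 32 is the reverse complement of TTTCGCGC, and the other, TTTGGCGC, is at position 284. The Uhrf1 match, TTTCGCGC, is at position 66, counted from the 5′ end of the window.
Dnmt1 promoter window, chr9:20952574-20952873, minus strand: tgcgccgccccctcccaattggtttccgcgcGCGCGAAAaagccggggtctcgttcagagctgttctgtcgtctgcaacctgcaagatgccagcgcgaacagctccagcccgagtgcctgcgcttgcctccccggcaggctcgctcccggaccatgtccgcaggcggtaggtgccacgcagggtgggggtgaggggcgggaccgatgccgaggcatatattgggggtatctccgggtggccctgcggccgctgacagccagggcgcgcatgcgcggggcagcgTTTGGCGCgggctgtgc
Uhrf1 promoter window, chr17:56304063-56304362, plus strand: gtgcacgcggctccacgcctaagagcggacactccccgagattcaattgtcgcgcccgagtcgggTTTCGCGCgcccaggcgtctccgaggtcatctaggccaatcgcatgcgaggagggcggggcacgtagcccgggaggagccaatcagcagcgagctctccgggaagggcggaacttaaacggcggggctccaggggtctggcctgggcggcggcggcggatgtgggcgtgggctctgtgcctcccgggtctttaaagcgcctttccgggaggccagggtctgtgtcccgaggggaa
A match is a description of the letters, binding was not measured, and a link between matches and gene values was not tested.

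In the second pair, capitals mark CpG dinucleotides, the substrate of these enzymes. The Dnmt3a window shown, the richest of its 3, held 47 CpGs (the others 46 and 18), and the Dnmt3b window 30, against a median of 7 over all windows.
Dnmt3a promoter window, chr12:3806910-3807209, plus strand: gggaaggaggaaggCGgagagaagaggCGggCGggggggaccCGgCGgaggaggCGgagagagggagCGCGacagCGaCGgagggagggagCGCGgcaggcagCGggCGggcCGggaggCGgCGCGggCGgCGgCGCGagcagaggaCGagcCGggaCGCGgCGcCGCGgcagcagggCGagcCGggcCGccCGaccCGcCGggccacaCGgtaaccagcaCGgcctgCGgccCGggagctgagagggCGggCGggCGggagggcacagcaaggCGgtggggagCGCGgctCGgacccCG
Dnmt3b promoter window, chr2:153649199-153649498, plus strand: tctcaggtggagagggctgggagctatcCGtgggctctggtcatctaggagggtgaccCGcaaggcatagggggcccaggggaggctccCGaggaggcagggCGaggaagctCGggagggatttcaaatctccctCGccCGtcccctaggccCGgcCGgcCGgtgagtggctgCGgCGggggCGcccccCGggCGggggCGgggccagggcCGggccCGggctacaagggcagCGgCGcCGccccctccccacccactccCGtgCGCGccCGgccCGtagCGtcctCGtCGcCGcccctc
Tet2 had the most CpG-rich window of the members, with 57 CpGs at chr3:133544341-133544640, and 99.85% of all windows held fewer. Dnmt1 and Uhrf1 each also had windows of 12 CpGs or fewer at other start sites, with no match to the 4 words. At Dnmt1 these were the windows chr9:20952930-20953229, with 12 CpGs, and chr9:20959839-20960138, with 2.

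The deposited values were whole numbers on a scale no source names, and they varied too little between replicates to be read counts. Library sums, between 378594 and 704305, do not give a depth, so the depth is unknown and levels were not compared between genes. Values below are scaled values (deposited value divided by a library factor) unless called deposited. The library labelled ex vivo CLP 2 correlated across genes better with the cCLP libraries (mean Spearman's rho 0.960) than with its own group (0.880). The library labelled cCLP 1 lay with ex vivo CLPs (0.957 against 0.892). Results on the members are therefore given over the 8 libraries as labelled and over 6 retained libraries, and pathway genes mainly over the 6, with the 8-library values of the main ones. The 6 were replicates 1, 3 and 4 of ex vivo CLP against replicates 2, 3 and 4 of cCLP, whose values are printed in that order. They were chosen with the profiles known, and p-values over them are conditional on it.

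The sort genes Il7r, Flt3 and Cd27 were above 0 in every library. Il7r was deposited at 61, 14 and 24 in the retained ex vivo libraries and at 213, 204 and 256 in the retained cCLP libraries, and Rag1, a recombinase gene of lymphoid cells, at 7, 1 and 2 against 276, 281 and 391. Dntt, the terminal transferase gene, went the other way, at 1874, 867 and 1205 against 82, 266 and 132. The summed level of 7 progenitor markers (Il7r, Flt3, Cd27, Rag1, Rag2, Dntt and Ighm) overlapped, at 1970.5 to 3656 and 2012 to 2330. The summed level of 6 B lineage markers was 2.87 to 3.81 and 13.4 to 23.5. Ly6d, sorted against, was deposited at 28, 28 and 41 in the retained ex vivo libraries and at 1 in each of the retained cCLP libraries. Of 11 OP9 or mesenchyme markers, 6 were listed at 0 in all 8 libraries (Col1a1, Col1a2, Col3a1, Col6a1, Sparc and Cxcl12). Fn1 was deposited at 0, 0 and 1 in the retained ex vivo libraries and at 11, 7 and 7 in the retained cCLP libraries, and Lgals1 at 374, 666 and 931 against 855, 1207 and 1301. Vim, by contrast, was at 214, 561 and 900 against 232, 261 and 301. Pdgfrb was at 11, 5 and 11 against 6, 3 and 7, and Thy1 at 1, 1 and 2 against 1, 1 and 1. The summed level of the 11 overlapped, at 725 to 1566 and 1175 to 1413. The summed level of 10 myeloid markers ranged from 1313 to 3148 in the retained ex vivo libraries and from 269 to 294 in the retained cCLP libraries, where Elane, Ctsg, Csf1r, Csf3r, S100a8 and S100a9 were listed at 0. The summed level of 7 dendritic markers was 419 to 543 and 46.1 to 63.1, with H2-Aa and H2-Ab1 listed at 0 in the retained cCLP libraries. Their part in the results below was not tested, and in bulk RNA fewer cells of a type and less RNA per cell cannot be told apart.

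Over the 8 libraries as labelled, none of the methylation genes was called. Testing required a scaled value of 10 or more in 4 libraries (3 for the comparison of 6), and a gene was called at an adjusted p below 0.05 (limma, Benjamini-Hochberg over all genes tested). Of the 9 members 5 were tested: Dnmt1, Uhrf1, Uhrf2, Dnmt3b and Tdg. Of them 0 were higher and 0 lower in cCLPs, against 0% and 0% of 6580 genes tested, and for 0 of the 5 did the groups lie apart, as they did for 3.45% of genes. Among all genes 510 had an unadjusted p below 0.05, and the smallest such p among the 5 members was 0.202, for Dnmt3b. Over the 6 libraries 1 of the same 5 members was lower (Dnmt1) and 0 higher, against 22.4% lower and 20.7% higher of 6622 genes tested. The members' median log2 fold change was -0.18, and that of all tested genes -0.0013. Fold changes are cCLP minus ex vivo CLP on the log2(scaled value + 1) scale, which understates the change of low genes.

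**Figure D1:**
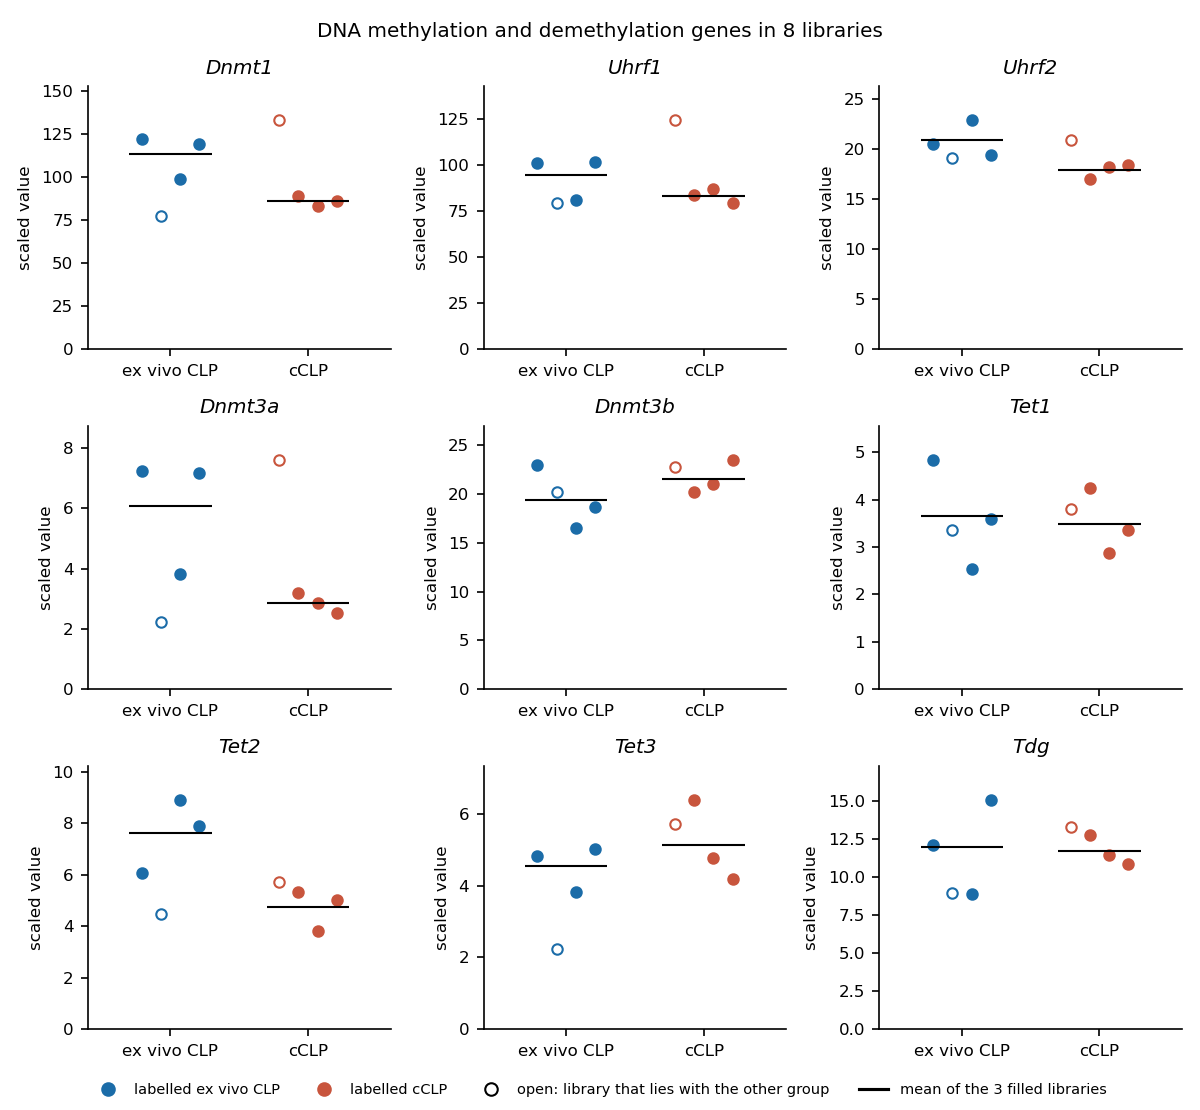
Scaled value of each of the 9 genes (vertical axis, from 0, a separate scale in each panel) in each library, by labelled group. Filled points are the 6 libraries and lines their means, and open points are ex vivo CLP 2 and cCLP 1. For Dnmt1, Uhrf2, Dnmt3a and Tet2 the filled points of the groups do not overlap. Over the same 6 libraries the groups did not overlap for 55.9% of all genes tested.

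Maintenance methylation is described first. Dnmt1 (ENSMUSG00000004099, GRCm38 chromosome 9, 20907209 to 20959888, minus strand) encodes the maintenance methyltransferase. Its scaled values were 122, 99.1 and 119 in the retained ex vivo libraries and 89.3, 83.1 and 86.4 in the retained cCLP libraries. The library labelled ex vivo CLP 2 was at 77.4, below every cCLP library, and cCLP 1 was at 133, above every other library. Over the 6 libraries the groups did not overlap, as for 55.9% of genes tested. Dnmt1 fell from 113 ± 12.5 to 86.3 ± 3.08 (SD, n = 3 each), a log2 fold change of -0.39 ± 0.11 (SE) with limma adjusted p = 0.0227. The 95% confidence interval of the ratio ran from 0.643 to 0.912. The call needed nearly every library. Leaving out ex vivo CLP 1 brought the limma adjusted p to 0.0649, and leaving out ex vivo CLP 4 to 0.0658. It was 0.0707 with cCLP 2 left out, 0.0866 with cCLP 3 left out, 0.0858 with cCLP 4 left out, and 0.113 when libraries were scaled by their sums. Over the 8 libraries Dnmt1 was at 104 ± 20.7 (SD, n = 4) and 97.9 ± 23.5, a log2 fold change of -0.10 ± 0.20 (limma adjusted p = 0.787), with an interval of the ratio from 0.686 to 1.28.

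Uhrf1 (ENSMUSG00000001228, chromosome 17, 56303321 to 56323486, plus strand), which encodes the reader of hemimethylated DNA, was not called. It was at 102, 81.3 and 102 in the retained ex vivo libraries and at 84.0, 87.0 and 79.6 in the retained cCLP libraries. Ex vivo CLP 3 lay among the cCLP libraries, so the groups overlapped. As for Dnmt1, the highest value was in cCLP 1 (124), and ex vivo CLP 2 was at 79.7. The log2 fold change was -0.18 ± 0.12 over 6 libraries (limma adjusted p = 0.258, interval of the ratio 0.736 to 1.07) and 0.03 ± 0.16 over 8 (limma adjusted p = 0.933). Without ex vivo CLP 3 it was -0.28 with limma adjusted p = 0.0431.

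Uhrf2 (ENSMUSG00000024817, chromosome 19, 30030513 to 30093722, plus strand), the paralogue of Uhrf1, varied little. It was at 20.5, 22.9 and 19.4 in the retained ex vivo libraries and at 17.0, 18.2 and 18.4 in the retained cCLP libraries, with ex vivo CLP 2 at 19.1 and cCLP 1 at 20.9. All values of the retained cCLP libraries were below the ex vivo values, and over the 6 libraries the groups lay apart for 55.9% of genes tested. The difference was not called (log2 fold change -0.21 ± 0.10, limma adjusted p = 0.119, interval of the ratio 0.735 to 1.01). Over the 8 libraries it was -0.13 ± 0.10 (limma adjusted p = 0.507).

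Dnmt1 and Uhrf1 had similar but not identical profiles across libraries. Dnmt1 minus Uhrf1, in log2(deposited value + 1) within a library, was 0.26, 0.28 and 0.22 in the retained ex vivo libraries. It was 0.09, -0.06 and 0.12 in the retained cCLP libraries, so these groups lay apart, described without a test. Ex vivo CLP 2 was at -0.04 and cCLP 1 at 0.095, so over the 8 libraries the groups overlapped. After centring each gene on its mean over the 8 libraries, the root mean square difference between Dnmt1 and Uhrf1 was 0.12 on the log2 scale. By this measure Dnmt1 was the 79th nearest of 6579 tested genes to Uhrf1, and Uhrf1 the 103rd nearest to Dnmt1. The 3 genes nearest to Dnmt1 were Eml3, Kntc1 and Chaf1a (0.059, 0.068 and 0.069, against a median of 0.35 over all tested genes), and those nearest to Uhrf1 were Rrp12, Lyar and Ltv1 (0.056, 0.057 and 0.076). The nearest to Uhrf2 were Golga5, Prpf31 and Rdx (0.035, 0.037 and 0.040). These are descriptions over 8 libraries.

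DNMT1 acts at the replication fork, and most replication genes were lower as well. In a list of 16 DNA replication genes, all tested, 12 were lower and 0 higher over the 6 libraries, with a median log2 fold change of -0.58 (over 8 libraries -0.31), against 22.4% lower among all genes. Mcm5, a subunit of the replicative helicase, fell from 231 ± 26.3 to 138 ± 2.87 (SD, n = 3 each), a log2 fold change of -0.74 ± 0.11 (limma adjusted p = 0.00137), and over the 8 libraries -0.38 ± 0.23 (limma adjusted p = 0.482). Pola1, the catalytic subunit of DNA polymerase alpha, fell by 0.92 ± 0.10 (limma adjusted p = 0.000288). Tyms, the thymidylate synthase gene, fell by 0.89 ± 0.18 (limma adjusted p = 0.00606). The summed level of 11 proliferation markers, of which 9 are also in that list, was 1907, 2050 and 1949 in the retained ex vivo libraries and 1288, 1325 and 1358 in the retained cCLP libraries. It was 1334 in ex vivo CLP 2 and 1915 in cCLP 1. Its part in the Dnmt1 values was not tested.

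The de novo methyltransferases are described next. Dnmt3a (ENSMUSG00000020661, chromosome 12, 3806007 to 3914443, plus strand) was low everywhere. Its deposited values were 6, 3 and 10 in the retained ex vivo libraries and 3, 3 and 3 in the retained cCLP libraries, with 2 in ex vivo CLP 2 and 8 in cCLP 1. After scaling these became 7.25, 3.81 and 7.18 against 3.19, 2.87 and 2.52, so the groups did not overlap, although ex vivo CLP 3 was near the cCLP values. Among genes tested over the 6 libraries, 55.9% had groups that did not overlap. With scaled values below 10 in all libraries, Dnmt3a was not tested with the filter. In the fit of all 13755 genes above 0 in any of the 6 libraries it was lower (log2 fold change -0.84 ± 0.23, limma adjusted p = 0.0217), where 20.2% of genes were lower. In that fit the limma adjusted p was 0.0753 with ex vivo CLP 1 left out, 0.0943 with ex vivo CLP 4 left out, 0.0617 with cCLP 2 left out, 0.0654 with cCLP 3 left out, 0.101 with cCLP 4 left out and 0.0561 with scaling by sums. The same deposited value of 3 in the retained cCLP libraries means that the spread there reflects only the library factors. Over the 8 libraries the log2 fold change was -0.28 ± 0.39 (limma adjusted p = 0.706).

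Dnmt3b (ENSMUSG00000027478, chromosome 2, 153649450 to 153687730, plus strand) was not called. It was at 23.0, 16.5 and 18.7 in the retained ex vivo libraries and at 20.2, 21.0 and 23.5 in the retained cCLP libraries, with ex vivo CLP 2 at 20.2 and cCLP 1 at 22.8. The groups overlapped. The log2 fold change was 0.16 ± 0.13 over 6 libraries (limma adjusted p = 0.377, interval of the ratio 0.901 to 1.38) and 0.16 ± 0.11 over 8 (limma adjusted p = 0.491). The genes nearest to Dnmt3b across the 8 libraries were Pfas and Polr3e (root mean square difference 0.059 and 0.065) and a gene without a symbol, ENSMUSG00000093514 (0.068).

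The within-library difference of Dnmt3a minus Dnmt3b, in log2(deposited value + 1), is free of the library factor except for the added 1. It was -1.51, -1.81 and -1.30 in the retained ex vivo libraries and -2.32, -2.52 and -2.86 in the retained cCLP libraries. Ex vivo CLP 2, at -2.66, lay with the latter and cCLP 1, at -1.47, with the former. The difference between the group means (cCLP minus ex vivo CLP) was -1.03 over the 6 libraries, given without a test. It was -0.47 over the 8 libraries, and the groups overlapped, from -2.66 to -1.30 in ex vivo CLPs and from -2.86 to -1.47 in cCLPs.

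**Figure D2:**
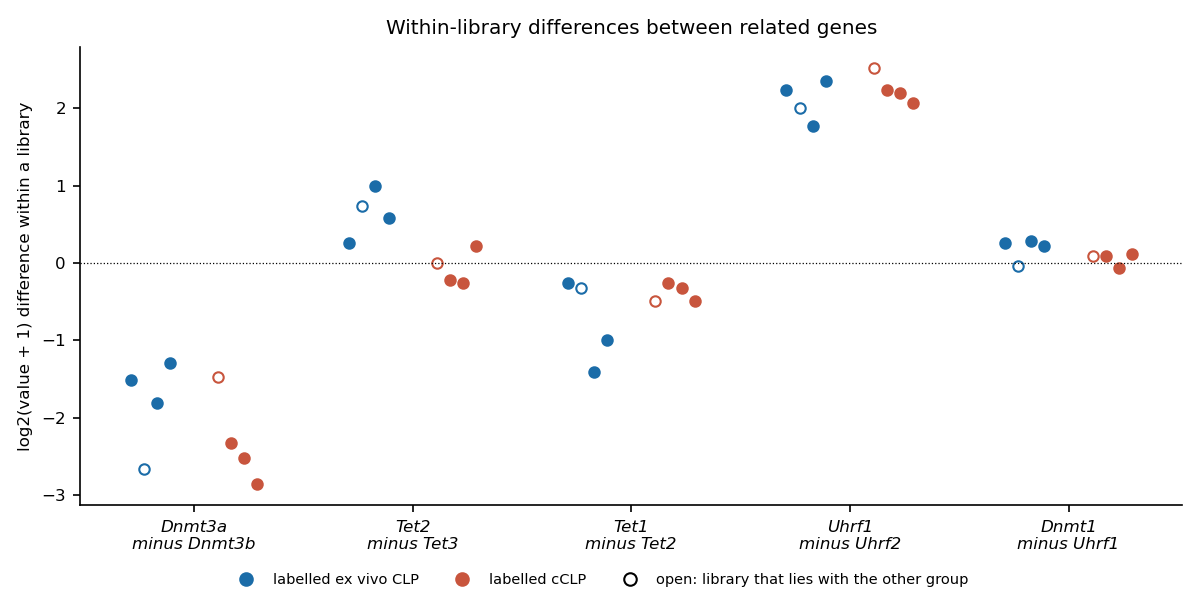
Difference of log2(deposited value + 1) between 2 related genes within each library (vertical axis), for 5 pairs. Filled points are the 6 libraries and open points ex vivo CLP 2 and cCLP 1. Dnmt3a minus Dnmt3b is between -1.81 and -1.30 in the retained ex vivo libraries and between -2.86 and -2.32 in the retained cCLP libraries.

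The scaled values of the TET dioxygenase genes were below 10 in every library, and Tet2 was the 1 of the 3 called in the unfiltered fit over 6 libraries, where 20.2% of genes were lower. Tet2 (ENSMUSG00000040943, chromosome 3, 133463679 to 133545139, minus strand) was deposited at 5, 7 and 11 in the retained ex vivo libraries and at 5, 4 and 6 in the retained cCLP libraries, with 4 in ex vivo CLP 2 and 6 in cCLP 1. The scaled values were 6.04, 8.89 and 7.89 against 5.32, 3.82 and 5.03, which did not overlap. Among genes tested over the 6 libraries, 55.9% had groups that did not overlap. Tet2 was lower in the unfiltered fit over the 6 libraries (log2 fold change -0.59 ± 0.17, limma adjusted p = 0.0311), and remained so without ex vivo CLP 1 (0.0122). The limma adjusted p was 0.0899 with ex vivo CLP 3 left out, 0.101 with ex vivo CLP 4 left out, 0.0529 with cCLP 2 left out, 0.108 with cCLP 3 left out and 0.0701 with cCLP 4 left out. Over the 8 libraries the log2 fold change was -0.37 ± 0.21 (limma adjusted p = 0.531).

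Tet1 (ENSMUSG00000047146, chromosome 10, 62804570 to 62908996, minus strand) was deposited between 2 and 5 in all libraries and its groups overlapped. The unfiltered log2 fold change over 6 libraries was -0.03 ± 0.22 (limma adjusted p = 0.913), and over 8 it was 0.0092 ± 0.19 (limma adjusted p = 0.981). Tet3 (ENSMUSG00000034832, chromosome 6, 83362373 to 83459084, minus strand) was deposited at 4, 3 and 7 in the retained ex vivo libraries and at 6, 5 and 5 in the retained cCLP libraries. Ex vivo CLP 2 had 2 and cCLP 1 had 6. Its log2 fold change was 0.13 ± 0.17 over 6 libraries (limma adjusted p = 0.575) and 0.36 ± 0.23 over 8 (limma adjusted p = 0.531). At these levels a step of 1 in the deposited value is a large part of the value.

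The within-library difference of Tet2 and Tet3 lay apart between the groups in both arrangements of the samples, but only narrowly. It is described here without a test, and how often other gene pairs lie apart was not counted. Tet2 minus Tet3 was 0.26, 0.74, 1.00 and 0.58 in ex vivo CLP 1 to 4 and 0.00, -0.22, -0.26 and 0.22 in cCLP 1 to 4. The 4 ex vivo CLP libraries as labelled all lay above the 4 cCLP libraries. The nearest were ex vivo CLP 1, at 0.26, and cCLP 4, at 0.22. The deposited values behind them were low whole numbers, and a step of 1 in either library could make the groups overlap. By this difference ex vivo CLP 2, at 0.74, and cCLP 1, at 0.00, lay with the group on their labels. Across all genes both libraries correlated better with the other group, and a difference between low genes cannot decide on their labels. Tet1 minus Tet2 overlapped, from -1.42 to -0.26 in ex vivo CLPs and from -0.49 to -0.26 in cCLPs.

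Tdg (ENSMUSG00000034674, chromosome 10, 82629828 to 82650799, plus strand), which encodes the glycosylase of active demethylation, was not called. It was at 12.1, 8.89 and 15.1 in the retained ex vivo libraries and at 12.8, 11.5 and 10.9 in the retained cCLP libraries, with ex vivo CLP 2 at 8.98 and cCLP 1 at 13.3. The ex vivo values spanned the cCLP values. The log2 fold change was -0.01 ± 0.18 over 6 libraries (limma adjusted p = 0.972, interval of the ratio 0.747 to 1.32) and 0.12 ± 0.18 over 8 (limma adjusted p = 0.696). Stk11, Nfe2l1 and Ube2e1 were nearest to it (root mean square difference 0.037, 0.060 and 0.061).

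**Figure D3:**
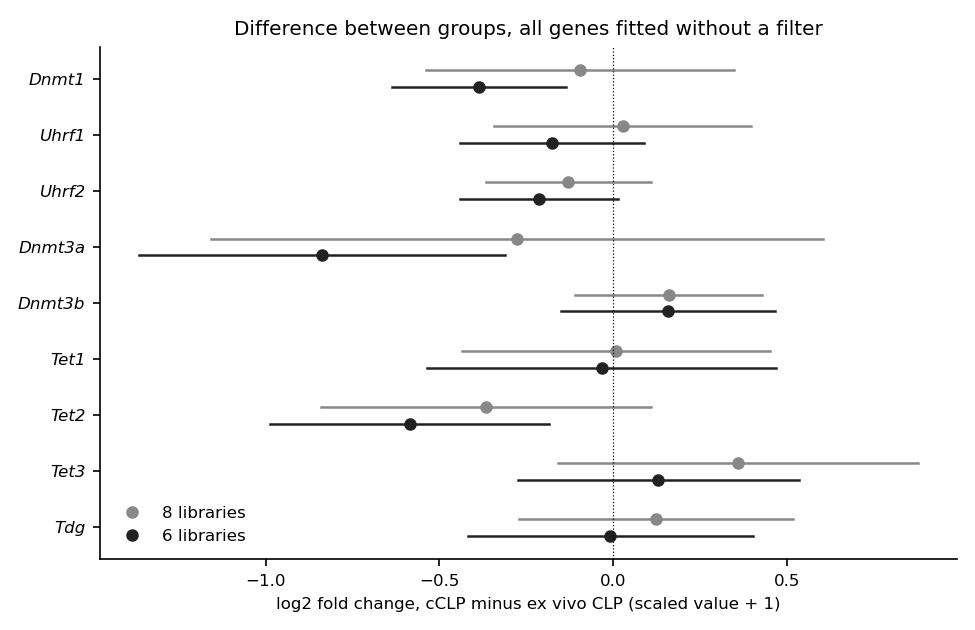
Log2 fold change of each gene, cCLP minus ex vivo CLP on the log2(scaled value + 1) scale (horizontal axis), from the fit without a filter, with 95% confidence intervals (lines). Grey is all 8 libraries and black the 6 libraries. Over 6 libraries the intervals of Dnmt1, Dnmt3a and Tet2 lie below 0, and over 8 every interval includes 0.

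Annotated genes that overlap the members were at or near 0 where the libraries listed them, Dnmt3aos and Dnmt3bos at 0 and Glt8d2, on the strand opposite Tdg, at no more than 1. The strand setting of the counting is not stated.

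The other genes of the pathway were taken from lists of partners, regulators and known targets. Over the 8 libraries 0 of 62 list genes tested were called by limma, and 2 had an unadjusted p below 0.05 (Pcna and Prim1). Over the 6 libraries 13 list genes were higher and 20 lower, in all 33 called, against 20.7% higher and 22.4% lower of all genes tested. Of the 20 lower, 12 were among the 16 tested genes of the DNA replication list, so the 20 do not describe the other lists. Pcna, 1 of these 12, is also in the list of partners. The same shares of all genes tested, 20.7% higher and 22.4% lower, apply beside the counts of each list below. Of the 33, 4 reached the filter only through the group in which they were high (Gadd45b, Kdm2b, Igf2r and Mtrr). Leaving out ex vivo CLP 4 or cCLP 3 left 8 higher, and leaving out cCLP 4 left 7. With each of the 6 libraries left out in turn, 20 of the 33 genes were called every time. The other 13 lost the call at least once, with limma adjusted p of up to 0.163 (Hmces). Ung lost it without cCLP 4, and Rrm1 without cCLP 2 or 3. Apex1 and Lig3 lost it without cCLP 3, cCLP 4 or ex vivo CLP 4, and D2hgdh with any 1 of the retained cCLP libraries left out. Usp7 lost it without cCLP 2, cCLP 3 or ex vivo CLP 4, and Setdb1 without cCLP 2, cCLP 4 or ex vivo CLP 4. The calls of Hells and Nsd1 were kept only when ex vivo CLP 3 was the library left out, those of Mat2a, Mtrr and Kdm2b only when it was ex vivo CLP 1, and that of Hmces only when it was ex vivo CLP 4. Scaling by sums also ended the calls of Hells, Usp7, Ung, Hmces, Setdb1, Mat2a, Mtrr, Kdm2b and Nsd1.

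Among 11 partners of maintenance and de novo methylation, 7 were tested, 4 were lower (Cdca7l, Pcna, Hells and Usp7) and 0 higher, with a median log2 fold change of -0.39 (over 8 libraries -0.10). Pcna, the sliding clamp that also recruits DNMT1, fell from 331 ± 46.7 to 221 ± 21.3 (SD, n = 3 each), a log2 fold change of -0.58 ± 0.14 (limma adjusted p = 0.0114), and over the 8 libraries -0.40 ± 0.16 (limma adjusted p = 0.482). Cdca7l fell by 0.86 ± 0.09 (limma adjusted p = 0.000158). Cdca7, in the same list, did not fall and was not called (log2 fold change 0.21 ± 0.14, limma adjusted p = 0.259). Hells, a remodelling ATPase needed for methylation of repeats, fell by 0.39 ± 0.13 (limma adjusted p = 0.0409). Dnmt3l, the cofactor of de novo methylation in germ cells, and Dppa3 were listed at 0 in all 8 libraries.

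Genes that act with or after TDG went both ways. Of 15 listed, 8 were tested, 3 were higher (Parp1, Lig3 and Apex1) and 3 lower (Gadd45b, Ung and Hmces), with a median of -0.03 over 6 and over 8 libraries. Parp1, the sensor of strand breaks, rose from 205 ± 15.2 to 319 ± 24.1 (SD, n = 3 each), a log2 fold change of 0.64 ± 0.11 (limma adjusted p = 0.00296), and over the 8 libraries 0.25 ± 0.25 (limma adjusted p = 0.578). Apex1, the abasic site endonuclease, rose by 0.36 ± 0.12 (limma adjusted p = 0.0436), and it overlaps Pip4p1 on the other strand. Ung, the uracil glycosylase, fell by 0.51 ± 0.12 (limma adjusted p = 0.00975). Gadd45b, a stress-induced gene, was deposited at 10, 52 and 78 in the retained ex vivo libraries and at 1, 3 and 1 in the retained cCLP libraries (-3.92 ± 0.62, limma adjusted p = 0.00213), and passed the filter only through the ex vivo libraries, which fixed its direction. Neil2 was listed at 0 throughout.

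Among genes that regulate TET enzymes or supply and clear their 2-oxoglutarate-related metabolites, 12 of 13 had an ID, 9 were tested, 3 were higher and 0 lower (median 0.24, over 8 libraries 0.04). Ogt, the O-GlcNAc transferase that binds TET proteins, rose from 35.9 ± 14.2 to 82.4 ± 8.17 (SD, n = 3 each), a log2 fold change of 1.24 ± 0.24 (limma adjusted p = 0.00451), and over the 8 libraries 0.55 ± 0.46 (limma adjusted p = 0.532). Cxxc5, a CXXC zinc finger gene, rose by 0.62 ± 0.11 (limma adjusted p = 0.00249) and D2hgdh, which clears D-2-hydroxyglutarate, by 0.34 ± 0.09 (limma adjusted p = 0.0205). Idh1 and Idh2, the isocitrate dehydrogenases, had log2 fold changes of 0.34 ± 0.15 and -0.06 ± 0.12 and were not called.

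Among 12 genes of the methyl donor cycle, 9 were tested, 2 were higher and 0 lower (median 0.15, over 8 libraries 0.11), where 20.7% of all genes tested were higher. Mat2a, which makes S-adenosylmethionine, the methyl donor of the DNMTs, was at 95.5, 36.8 and 56.7 in the retained ex vivo libraries and at 142, 112 and 108 in the retained cCLP libraries (1.02 ± 0.31, limma adjusted p = 0.0287). Mtrr, the methionine synthase reductase gene, rose by 0.48 ± 0.15 (limma adjusted p = 0.0363), and passed the filter only through the cCLP libraries, which fixed its direction. Of 9 methyl-CpG readers and their partners, 5 were tested and 2 were higher, Mbd1 (0.51 ± 0.09, limma adjusted p = 0.00358) and Setdb1 (0.42 ± 0.11, limma adjusted p = 0.0181), with 0 lower and a median of 0.39 (over 8 libraries 0.26). Setdb1 overlaps Cers2 on the other strand, so without a stated strand setting its value is uncertain.

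Among 10 genes that bind CpG islands or link them to H3K4 and H3K36 methylation, 7 were tested, 1 was higher (Kdm5b, an H3K4 demethylase gene, 0.89 ± 0.11, limma adjusted p = 0.000412) and 2 were lower (Nsd1, an H3K36 methyltransferase gene, -0.54 ± 0.16, limma adjusted p = 0.026, and Kdm2b, -0.37 ± 0.12, limma adjusted p = 0.0385), with a median of -0.04 (over 8 libraries -0.08). Kdm2b overlaps Rnf34 on the other strand, and it met the filter only through the ex vivo libraries, since 1 of the 3 retained cCLP libraries was at 10 or more.

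**Figure D4:**
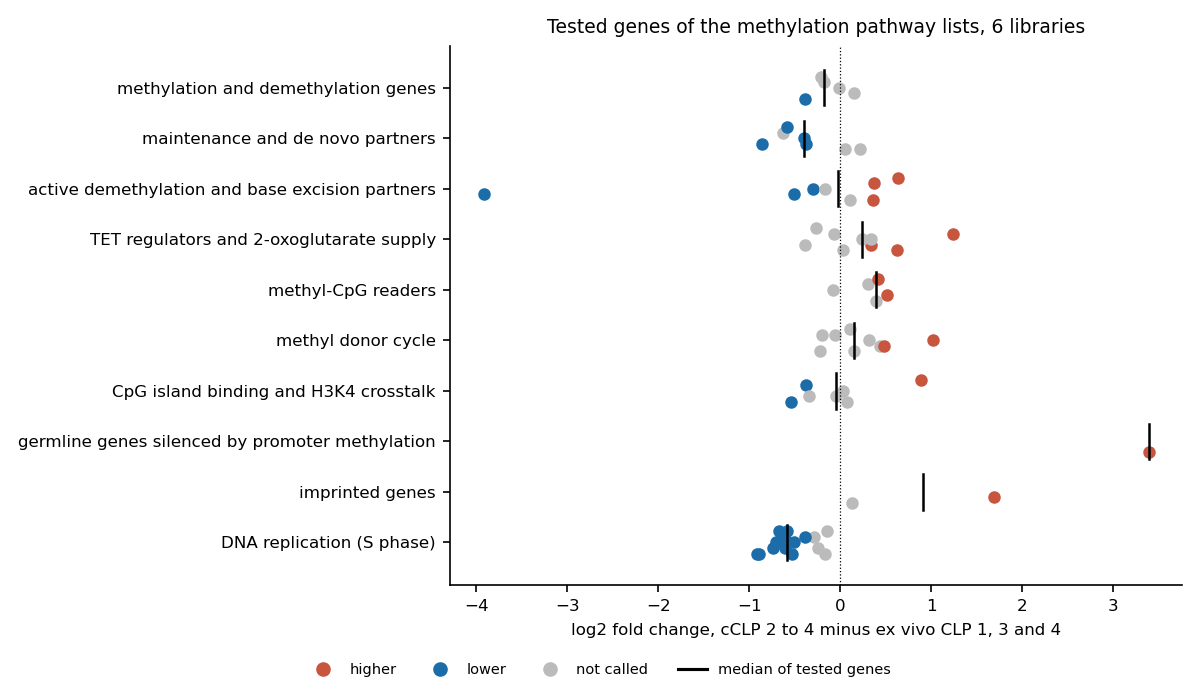
Log2 fold change over the 6 libraries (horizontal axis, cCLP 2 to 4 minus ex vivo CLP 1, 3 and 4) of each tested gene of the members and of 9 lists (rows). Red is called higher, blue called lower, grey not called, and the black line is the median. The DNA replication row has 12 of 16 genes called lower, and Ddx4 lies farthest to the right, at 3.39.

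Targets known to depend on DNA methylation were mostly listed at 0. Of 14 germline genes that promoter methylation keeps silent in somatic cells, 13 were listed at 0 in all 8 libraries, Dazl, Mael, Asz1 and Sycp3 among them. Of all 39179 IDs, 13861 were above 0 in any of the 8 libraries, so most IDs were listed at 0 throughout. The exception was Ddx4, which encodes the germ cell RNA helicase Vasa. Ddx4 was at 21.8, 15.2 and 12.2 in the retained ex vivo libraries and at 170.1, 189 and 171 in the retained cCLP libraries, with 131 in ex vivo CLP 2 and 18.0 in cCLP 1. It rose from 16.4 ± 4.88 to 177 ± 10.8 (SD, n = 3 each), a log2 fold change of 3.39 ± 0.19 (limma adjusted p = 5.06e-06). The change was 1.84 ± 0.95 over the 8 libraries and was not called (limma adjusted p = 0.482). Every library of both groups was above 10, so the filter did not fix its direction. Methylation was not measured at Ddx4 or elsewhere.

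Of 18 imprinted genes, whose single-allele expression is set by inherited methylation, 16 had an ID, 9 of these were listed at 0 throughout, and Igf2r and Gnas were tested. Igf2r, which encodes the mannose 6-phosphate receptor, was at 12.1, 6.35 and 7.18 in the retained ex vivo libraries and at 36.1, 20.1 and 32.7 in the retained cCLP libraries (1.69 ± 0.27, limma adjusted p = 0.00187), and over the 8 libraries the change was 0.75 ± 0.62 (limma adjusted p = 0.528). It too passed the filter only through the cCLP libraries. Its antisense RNA Airn was deposited at no more than 4, and the 2 cannot be told apart without a strand setting. Gnas was not called (0.13 ± 0.13, limma adjusted p = 0.449). Alleles were not measured.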

How the data were processed

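RNA from sorted cells was made into stranded total RNA libraries after Ribo-Zero depletion (100 ng RNA, paired 75 nt reads, NextSeq500), per the labels' protocols. TopHat2, Bowtie2, HTSeq 1.0.6 and GRCm38 are named in the submitters' processing notes, without roles. The strand setting, annotation release and scaling are not given in the sources used here. The deposited value is a score, a whole number per gene. Between cCLP 3 and 4 its dispersion index was 0.26, where read counts give at least about 1, so count models were not used. Precision is therefore known only from the libraries' spread.

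Symbols came from the GENCODE vM21 gene table, by Ensembl ID. Each library was divided by a trimmed mean of its log ratios to a reference library (30% of ratios, 5% of levels trimmed), with a geometric mean of 1 over libraries. Group differences in log2(scaled value + 1) came from limma 3.58.1, run under R 4.3.3 (mean-variance trend, robust moderation, two-sided), with Benjamini-Hochberg adjustment over all genes tested, and tested on simulated data. Printed levels use factors over 8 libraries. Python 3.11.15 searched the promoters. All members were named. Of each list, up to 3 genes called in each direction over 6 libraries qualified, those with the largest changes, and some are given only in counts. Other list genes were named after their values were seen. The nearest 3 genes were named for each tested member. The members and lists were chosen with earlier results of these data known. Alternatives were other scalings, filters, added constants, moderation, a replicate block and leaving out each library.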

Additional observations from a re-analysis of the deposited data

Results flagged for a closer look

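In 3 of 18 checks (9 genes in 2 groups of 4 libraries) 1 library stood apart from the other 3 of its group by Dixon's test at the 95% level, and chance gives about 1 in 20. All 3 were in the library labelled cCLP 1: Dnmt1 at a scaled value of 133, Uhrf1 at 124 and Dnmt3a at 7.60, each above the other cCLP libraries. The gap took 0.877, 0.837 and 0.867 of the group's range. The library labelled cCLP 1 was already known to lie with ex vivo CLPs across genes. The 3 checks are therefore not independent, and the rate given by chance cannot be set against them.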

How the results depend on the processing

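The call of Dnmt1 over the 6 libraries was kept under the other scalings but not under scaling by sums, where 0 members were lower. Without a filter 3 of the 9 members were lower, where 20.2% of 13755 genes were. With 1 library left out the number lower ran from 0 to 2, list genes higher from 7 to 15, list genes lower from 14 to 21 and replication genes lower from 11 to 13. Leaving out both libraries that lie with the other group, an alternative chosen after seeing the data, took the calls over the 8 libraries from 0 to 1 member lower, 13 list genes higher, 20 list genes lower and 12 replication genes lower. An added 5 in place of 1 moved the log2 fold change over 6 libraries from -0.84 to -0.48 for Dnmt3a and from -0.59 to -0.37 for Tet2. It brought the group difference of Dnmt3a minus Dnmt3b over 6 libraries to -0.68, and that of Tet2 minus Tet3 over 8 libraries to -0.42 from -0.71. A larger added constant shrinks log2 differences between low values by arithmetic. The cause of the other shifts in this paragraph was not tested.

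Signs turned for uncalled values near 0. Over 8 libraries the log2 fold change of Uhrf1 went to -0.18 and that of Tdg to -0.0090 once both doubted libraries were dropped. With single libraries dropped, Uhrf1 ran from -0.11 to 0.11 over the 8 (negative when ex vivo CLP 2, at -0.03, ex vivo CLP 3, at -0.02, or cCLP 1 was left out). Tdg ran from -0.19 to 0.16 over the 6, and was 0.030 with scaling by sums. Tet1 ran from -0.11 to 0.13 over the 8 and from -0.22 to 0.16 over the 6, and Tet3 from -0.0019 to 0.24 over the 6.

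The replicate numbers were not shown to pair libraries: same-numbered libraries correlated in their deviations from the group means at 0.59, 0.84, -0.57 and -0.86, and these means hold the doubted libraries. With a replicate block 0 members were called over the 8 libraries, and 0 over ex vivo CLP 3 and 4 and cCLP 3 and 4, where Dnmt1 was at -0.33 (limma adjusted p = 0.125) with fewer samples.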
